A study of Mus musculus with 6 samples.

Results

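The Rbm20 locus and 7 other genes of splicing regulators of heart muscle were examined for acetylation of histone H3 at lysine 27 (H3K27ac) in mouse cardiomyocyte nuclei. The 8 genes, out of 21887 protein-coding genes of the RefSeq annotation of mm10, were Rbm20, Rbm24, Mbnl1, Mbnl2, Celf1, Celf2, Rbfox1 and Rbfox2. For each gene the called peaks that overlapped the annotated gene body or 10 kb on either side were taken, and this interval is called the window of the gene. Rbm20 was chosen by the length its peaks cover in these same lists, so the size of that domain is described and not tested.

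FVB mice of 8 to 12 weeks gave left ventricular nuclei, which were sorted with an antibody to PCM-1, a centrosomal protein that collects around cardiomyocyte nuclei. H3K27ac was profiled by CUT&RUN, in which a nuclease tethered to the antibody releases the DNA around the mark. There were 3 libraries of wild-type mice (WT) and 3 of homozygous mice (HOM) in which both Nppa and Nppb, the genes of the cardiac natriuretic peptides, were knocked out. Where the deletion ends is not given in the sources used here, and the breeding notes name Myh6-MerCreMer, nTnG and Sun1/sfGFP reporter mice on the FVB/N background without saying which libraries, if any, carried these alleles. Whether each library is a different mouse is not stated, and the p-values below then measure the spread between these libraries, which may be technical.

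The lists differed widely in length. Values for several libraries are given in replicate order, and for HOM without replicate 2 in the order 1 and 3. WT replicates 1, 2 and 3 held 21340, 72362 and 106605 peaks covering 6.69, 31.6 and 55.7 Mb, and HOM replicates 1, 2 and 3 held 48102, 1462 and 15184 peaks covering 17.2, 0.296 and 4.54 Mb. HOM replicate 2 stands apart from the rest, and results that rest on it are given with and without it. The other 5 libraries, each with more than 10000 peaks, are called the 5 longer lists. The median peak had 9 to 11 overlapping fragments at its summit in all 6 lists, so the fold of a peak moves in steps of 1 fragment. WT replicate 1 and HOM replicate 1 held 111 and 112 peaks on the Y chromosome below position 80 Mb, and each other library held 1 to 5. The sort matched the labelled tissue in the cardiomyocyte markers: 10 of 10 had a peak in all 5 longer lists. Of all protein-coding genes, 16.5% did. Fibroblast and neural markers had 0 of 8 each. Endothelial, smooth muscle and pericyte, and immune markers had 1 of 8 each, 12.5%, which is near the share of all genes. Fewer cells of a type and less mark per cell cannot be told apart in such bulk samples.

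H3K27ac marks active promoters and enhancers, and genes that define a cell type often carry it over long stretches. RBM20 is a nuclear RNA-binding protein with an arginine- and serine-rich domain that represses exons of titin and changes the splicing of Camk2d and Ryr2, and its mutation causes dilated cardiomyopathy. RBM24 promotes inclusion of muscle exons. Muscleblind proteins (MBNL1 and MBNL2) drive the switch from fetal to adult splicing and are sequestered by repeat RNA in myotonic dystrophy, CELF1 and CELF2 oppose them on many exons, and RBFOX1 and RBFOX2 bind UGCAUG beside regulated exons.

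Several of the genes have more than 1 annotated start. In Celf2 and Rbfox1 acetylation was found at 1 internal start and at no other annotated start. In Celf2 the unmarked starts include some further inside the gene. The marked internal and the outermost promoters of both genes are shown because the peaks separated them. Each is 300 bases of the RefSeq reference of mm10 (250 before and 50 after the start), read 5′ to 3′ along the gene, and the mice were of another strain than the reference. Motifs were searched on both strands. Capitals mark AAGGTCA (estrogen-related receptors) in the first, AGATAA (the motif of GATA factors) and GGAATG (TEAD factors) in the second, and CAGCTG (an E-box) in the third. The fourth held none of the 7, which also included GGTGTGA (T-box factors) and the MEF2 and SRF motifs.
Celf2 internal start, chr2:7081253-7081552, minus strand: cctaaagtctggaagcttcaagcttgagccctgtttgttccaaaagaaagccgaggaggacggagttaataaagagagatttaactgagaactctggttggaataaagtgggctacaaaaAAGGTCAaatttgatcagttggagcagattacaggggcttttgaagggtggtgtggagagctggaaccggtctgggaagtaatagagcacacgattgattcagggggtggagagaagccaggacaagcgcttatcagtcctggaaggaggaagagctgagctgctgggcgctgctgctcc
Celf2 outermost start, chr2:7396149-7396448, minus strand: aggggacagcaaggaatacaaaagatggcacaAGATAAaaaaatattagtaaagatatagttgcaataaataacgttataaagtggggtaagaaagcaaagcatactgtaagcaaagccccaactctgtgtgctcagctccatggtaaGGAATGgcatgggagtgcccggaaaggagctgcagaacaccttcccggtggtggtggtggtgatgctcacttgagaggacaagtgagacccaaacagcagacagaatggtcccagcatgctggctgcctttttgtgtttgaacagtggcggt
Rbfox1 internal start, chr16:7069585-7069884, plus strand: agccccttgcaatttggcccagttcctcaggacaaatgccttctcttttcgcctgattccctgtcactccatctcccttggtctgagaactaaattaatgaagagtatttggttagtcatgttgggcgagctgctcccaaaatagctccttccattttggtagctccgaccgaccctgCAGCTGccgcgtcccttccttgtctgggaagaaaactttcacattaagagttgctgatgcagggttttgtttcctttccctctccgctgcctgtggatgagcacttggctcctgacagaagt
Rbfox1 outermost start, chr16:5884543-5884842, plus strand: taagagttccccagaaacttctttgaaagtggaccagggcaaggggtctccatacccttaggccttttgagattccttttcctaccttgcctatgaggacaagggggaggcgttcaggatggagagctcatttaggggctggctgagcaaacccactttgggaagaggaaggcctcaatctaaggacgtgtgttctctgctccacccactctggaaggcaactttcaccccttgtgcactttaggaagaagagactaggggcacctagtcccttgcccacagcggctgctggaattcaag
AAGGTCA occurred in 4.72% of all 32851 annotated promoters, AGATAA in 11.2%, GGAATG in 14.7% and CAGCTG in 16.3%, so a match in 1 promoter is a description of its letters. The table used here held 12 promoters for 6 of the 8 genes, and none was printed for Rbm20 or Rbfox2.

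Rbm20 lies at chr19:53660989-53867083 on mm10 and spans 206 kb. Its window held 72, 174 and 168 peaks in the WT libraries, against 153, 0 and 54 in the HOM libraries. These peaks covered 22945, 92253 and 141272 bp in WT and 60463, 0 and 15163 bp in HOM. The covered length followed the length of the lists, and between 97.7% and 98.8% of it lay inside the gene body rather than in the flanks. By covered length, Rbm20 ranked 3, 2 and 2 among the 21887 genes in the WT libraries and 1 and 4 in HOM replicates 1 and 3. By share of the window covered, which divides by the length of the window, it ranked 83, 39 and 22 for WT, and 39 and 116 for HOM replicates 1 and 3.

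**Figure D1:**
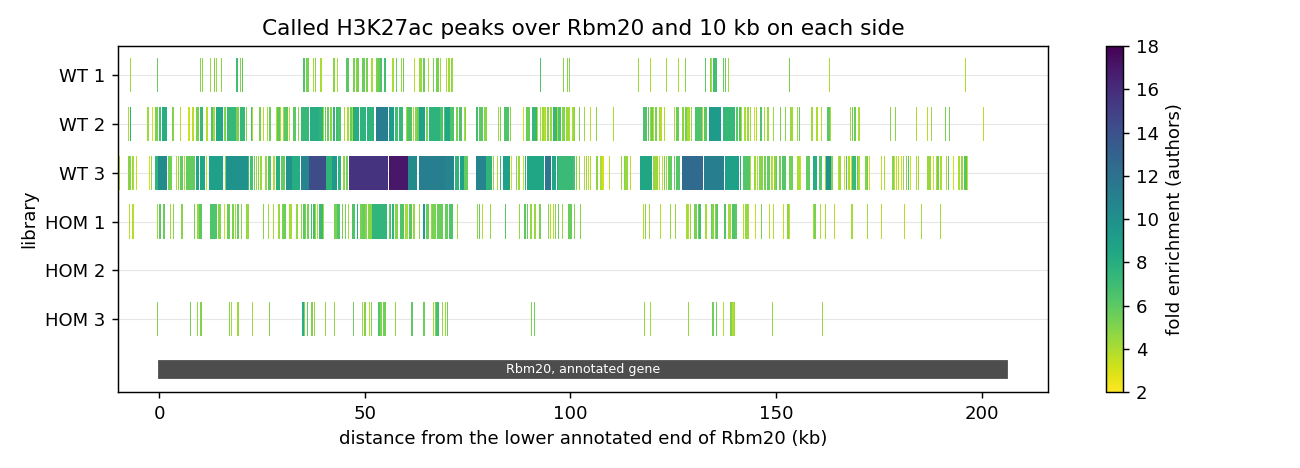
Called H3K27ac peaks over Rbm20, with distance in kb from the lower-coordinate end of the annotated gene on the horizontal axis, 1 row per library and the authors' fold enrichment as colour. Peaks are densest between 30 and 70 kb in the 5 longer lists, and HOM replicate 2 has no peak.

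When peaks were joined over gaps of up to 10 kb, the domain over Rbm20 was chr19:53645927-53861548 in WT replicate 2 and chr19:53647466-53857642 in WT replicate 3, spans of 216 and 210 kb. In both it had the largest covered length of all domains, 94114 bp among 16690 domains and 143709 bp among 20864. In WT replicate 1 the gene split into 7 domains, and the largest, chr19:53694916-53742263, covered 14572 bp and ranked 15 of 7632. In HOM replicate 1 the domain chr19:53638643-53763637 covered 46975 bp, reached into the neighbouring gene Smc3, a cohesin subunit, and ranked 6 of 12399. In HOM replicate 3 chr19:53660492-53731304 covered 11429 bp and ranked 11 of 5981. At this gap the Rbm20 domain was thus within the first 15 in each of the 5 longer lists. Joining gave 1 domain along the gene in the 2 longest lists, WT replicates 2 and 3, where peaks filled 43.6% and 68.4% of it. With gaps of up to 5 kb, WT replicate 2 split into 3 domains and its largest ranked 2. With gaps of up to 20 kb, the domain ranked 2 in WT replicate 3 and 16 in HOM replicate 3. At the gap of 10 kb, the WT mean of the Rbm20 domain was 84132 ± 65145 bp (SD, n = 3), and 54343 bp without WT replicate 3. Next in rank after it were a domain over Gm15319 in WT replicate 2 (83735 bp), one over Tns1 and Rufy4 in WT replicate 3 (132133 bp), one over Gm40363 in WT replicate 1 (13736 bp) and one over Sfi1 in HOM replicate 1 (45160 bp). Directly ahead of it were Trak1 in WT replicate 1 (14770 bp) and Gm40363 in HOM replicate 3 (11445 bp).

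**Figure D2:**
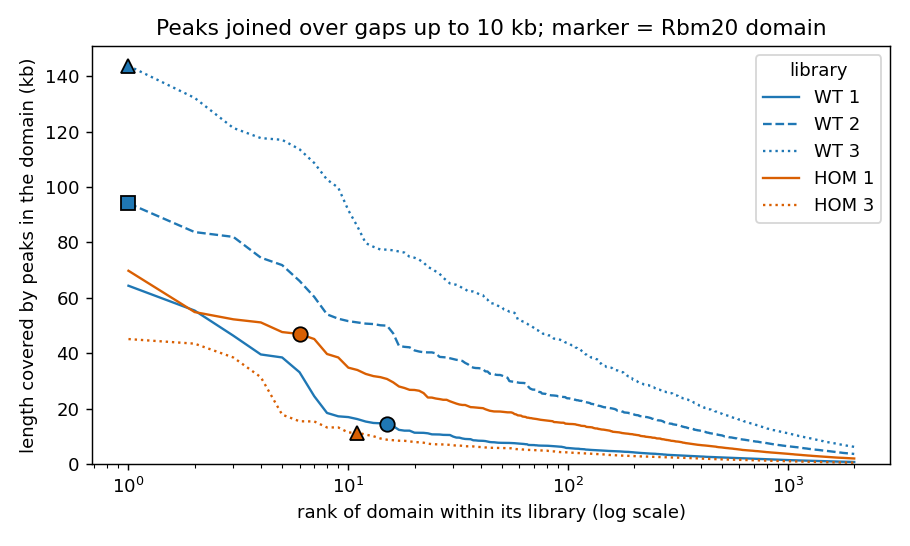
Length covered by peaks in each joined domain (kb, vertical axis) against its rank within the library (log scale), 1 line per library, with a marker on the Rbm20 domain. The marker is at rank 1 in WT replicates 2 and 3 and at ranks 15, 6 and 11 in WT replicate 1, HOM replicate 1 and HOM replicate 3.

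The height of the Rbm20 peaks was less extreme than their extent. The highest fold was 6.86, 11.3 and 17.0 in the WT libraries, against 9.06 and 7.99 in HOM replicates 1 and 3. These peaks had 16, 27, 37, 23 and 18 fragments at the summit in the same order. Within their lists they ranked 707, 310, 186, 313 and 242 by fold (tied peaks take the best rank), which is the top 3.31%, 0.428%, 0.174%, 0.651% and 1.59%. The median Rbm20 peak stood in the top 29.2% to 45.1% of its list. The strongest peak was not the same one in each library. It was chr19:53795721-53796573 in WT replicate 1 (1 of 3 peaks with the same fold there), chr19:53713594-53716531 in WT replicate 2 and chr19:53716834-53721451 in WT replicate 3. In HOM replicates 1 and 3 it was chr19:53725102-53725642 and chr19:53695701-53696112. The last 4 of these 5 peaks lie within the densest part of the gene, described next. The widest single peak, chr19:53707041-53716516 in WT replicate 3, was 9476 bp long.

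Within the gene the marked bases had the same layout in each of the 5 longer lists. The stretch from 30 to 70 kb above the lower end held 57.6%, 33.6% and 26.5% of the covered bases in the WT libraries, against 40.5% and 54.8% in HOM replicates 1 and 3. A second rise at 130 to 150 kb held 10.3% to 15.8%, and the part beyond 170 kb held 0% to 6.75%. The share in the densest stretch was lower in the longer lists, where peaks also filled the rest of the gene. Over 12 bins of 20 kb, the covered lengths of pairs of libraries had Pearson correlations of 0.744 to 0.967, a description only, since bins of 1 gene are not independent. There were 29 stretches covered in all 5 longer lists, 5188 bp in total, of which 27 began between -0.497 and 69.7 kb from the lower end and 2 lay near 135 kb. The longest, chr19:53715550-53716093, was 544 bp. When touching peaks of the 6 lists were merged, 165 regions resulted, 14 with a peak in at least 5 libraries and 71 with a peak in 1. The lncRNA genes Gm46653, Gm30943, Gm30890, Gm16299 and Gm41863 overlap the window, so peaks over them cannot be assigned to Rbm20 alone.

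Across the 8 genes, 7 had a peak in all 5 longer lists, where 16.5% of protein-coding genes did, and the exception was Celf1. By library, 8, 8 and 8 of the 8 genes had a peak in WT, where 26.2%, 50.8% and 60.4% of all genes did. In HOM the numbers were 8, 1 and 7, where 40.6%, 2.44% and 20.5% of all genes had one. The windows range from 33.0 kb for Rbm24 to 1548 kb for Rbfox1, and a longer window can catch more peaks, so genes are compared by the share of the window covered. This share still depends on length, since it is low for a long gene marked over a short stretch. The order was nearly the same in each of the 5 longer lists. Rbm24, Rbm20, Mbnl1, Mbnl2 and Rbfox2 came in this order in 4 of them, and in WT replicate 3 Rbm20 stood above Rbm24. Celf1, Celf2 and Rbfox1 came last in all 5. The WT means were 38.3% ± 21.1 for Rbm24, 37.8% ± 26.3 for Rbm20, 26.8% ± 17.9 for Mbnl1 and 19.2% ± 16.3 for Mbnl2 (SD, n = 3). They were 11.6% ± 9.0 for Rbfox2, 2.65% ± 2.01 for Celf1, 1.53% ± 1.19 for Celf2 and 1.41% ± 1.04 for Rbfox1. Each mean differed from its neighbour in this order by less than the larger SD of the pair, a spread that the genes share because the 3 WT lists differ in length. Within libraries, Mbnl1 stood above Mbnl2, Mbnl2 above Rbfox2 and Rbfox2 above Celf1 in all 5 longer lists, while Rbm20 and Rbm24, and Celf1, Celf2 and Rbfox1, changed places.

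**Figure D3:**
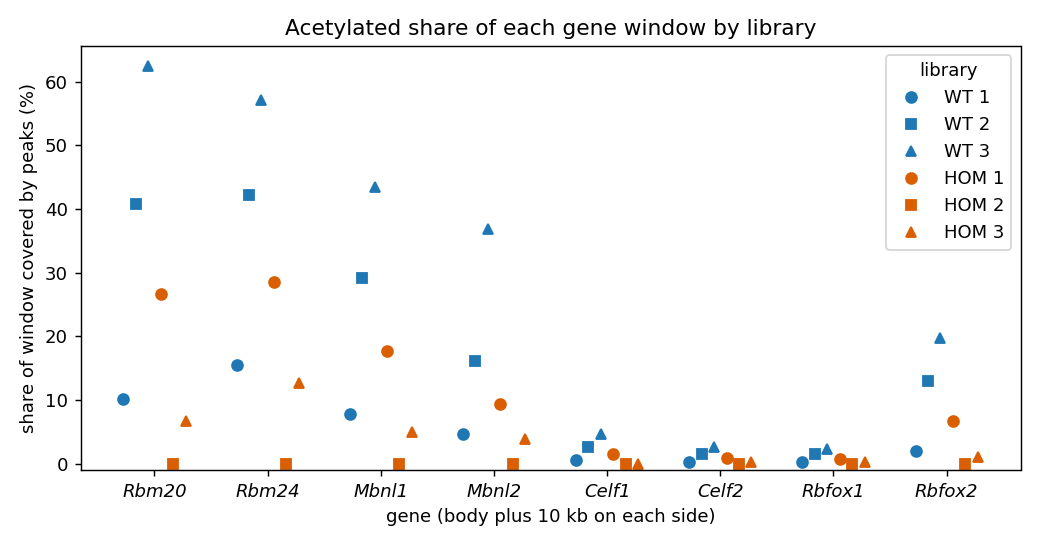
Share of each gene window covered by called peaks (%, vertical axis) for the 8 genes, 1 marker per library, blue for WT and orange for HOM. Rbm20 and Rbm24 reach 62.5% and 57.1% in WT replicate 3, and Celf1, Celf2 and Rbfox1 stay below 5% in every library.

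Rbm24, the muscle splicing activator, is short (chr13:46418102-46431099). Peaks covered 3761, 10313 and 11805 of the 12998 bp of its body in the WT libraries, and 7099 and 2847 bp in HOM replicates 1 and 3. Its window was covered to 15.5%, 42.2% and 57.1% in WT and to 28.5%, 0% and 12.8% in HOM. By this share it ranked between 29 and 40 of all genes in the 5 longer lists. It had 12 stretches covered in all 5 longer lists, which began between -3.99 and 10.5 kb from its lower end, the longest chr13:46425806-46426522 with 717 bp. Its annotated promoter was overlapped by a peak in 4 of these lists, and in HOM replicate 3 the nearest peak was 184 bp away.

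The muscleblind genes carried the mark mainly inside the gene. Mbnl1 (chr3:60472559-60629750) was covered to 7.85%, 29.1% and 43.4% in WT and to 17.7%, 0% and 4.95% in HOM. Its outer start had no peak in any library, and the nearest lay 12543 to 29709 bp away in the 5 longer lists. Its internal start (chr3:60500929-60501228) was overlapped in WT replicates 2 and 3, and in WT replicate 1, HOM replicate 1 and HOM replicate 3 a peak lay 138, 476 and 1360 bp from it. The highest-fold peak of Mbnl1 in WT replicate 3, chr3:60500541-60518553, began there and ran for 18013 bp, with rank 70 of 106605 by fold. Mbnl2 (chr14:120275652-120431698) was covered to 4.71%, 16.2% and 36.8% in WT and to 9.40%, 0.0540% and 3.84% in HOM. Its strongest cluster lay inside the gene, at chr14:120294353-120302535 in WT replicate 3, where the peak had a fold of 19.3 and rank 77. The only peak of HOM replicate 2 in any of the 8 windows, chr14:120300488-120300582 with a fold of 5.13, fell in this cluster, within a stretch covered in the strongest Mbnl2 peak of WT replicate 1 (chr14:120299898-120300619).

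The CELF and RBFOX genes had the mark over a smaller share of their windows. Celf1 (chr2:90940259-91019497) held 3, 6 and 12 peaks in WT and 5, 0 and 0 in HOM. No stretch of it was covered in all 5 longer lists. Its annotated promoter had no peak in any library, though one lay 550 to 1185 bp away in 4 of them. Celf2 (chr2:6539694-7396341) held 8, 28 and 48 peaks in WT and 16, 0 and 10 in HOM. All 5 stretches covered in the 5 longer lists lay between chr2:7081369 and chr2:7090513. The one with the lowest coordinate overlapped the internal promoter printed above. Of its 5 annotated promoters this one was overlapped in all 5 longer lists, with folds of 5.24, 10.9 and 14.3 for WT, and 8.68 and 4.203 for HOM replicates 1 and 3. The other 4 had no peak in any library, and for the outermost the nearest was 17291 to 17722 bp away in the 5 longer lists. Rbfox1 (chr16:5884793-7412480) held 15, 57 and 57 peaks in WT and 24, 0 and 14 in HOM. Its 8 common stretches began between 1185 and 1218 kb into the gene, and the first of them overlapped the promoter of its internal start. That promoter was overlapped in all 5 longer lists, with folds of 6.45, 10.5 and 14.8 for WT, and 6.41 and 5.88 for HOM replicates 1 and 3. The nearest peak to the outer start was 175190 to 175197 bp away in these lists. Rbfox2 (chr15:77078990-77308434) held 14, 70 and 104 peaks in WT and 46, 0 and 8 in HOM, with 7 common stretches between 124 and 137 kb from its lower end.

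Of the 12 annotated promoters, 2 were overlapped in all 5 longer lists, where 0.667% of all promoters were (219 of 32851), and 7 had no peak in any library. By library 3, 5 and 5 of the 12 were overlapped in WT, where 3%, 14.2% and 24.3% of all promoters were, and 3, 0 and 2 in HOM, where 8.21%, 0.0791% and 2.26% were. Peaks do not show which start is transcribed, and no RNA was measured in these samples. The internal starts overlapped by a peak had a GC content of 49.3% in Celf2, 50% in Rbfox1 and 75% in Mbnl1. The median of all annotated promoters was 52.7%.

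The design asks whether loss of Nppa and Nppb goes with a change of the mark. Each library was given a relative covered length, the bp covered in a window per Mb covered by its peaks genome wide. For Rbm20 it came to 3429, 2918 and 2538 bp per Mb in the WT libraries, against 3515, 0 and 3339 in the HOM libraries. Apart from the HOM library without peaks, the HOM values lie in and just above the WT range. The difference of means, HOM minus WT, was -677 bp per Mb (exact two-sided permutation test, p = 0.9, adjusted p = 1 over 13591 genes). Without HOM replicate 2 it was +465 (exact p = 0.3). The 20 assignments of 3 against 3 libraries allow no p below 0.1.

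For the other 7 genes the differences ran from -22.2 bp per Mb for Rbm24 to -448 for Mbnl1, with exact p between 0.3 and 1 and adjusted p of 0.839 or 1. No gene of the 8 had libraries that did not overlap between genotypes, where 8.56% of tested genes had WT higher and 0.265% had HOM higher. At an adjusted p under 0.05, 0 genes of 13591 were called, and 1200 (8.83%) reached the unadjusted exact p of 0.1, the smallest possible. All 8 differences were negative, and HOM replicate 2 had no covered base in 7 of the 8 windows. Without it, 6 of the 8 were positive. The 2 that stayed negative were Celf1 at -43.8 and Rbfox2 at -92.5. The HOM lists left then cover 17.2 and 4.54 Mb, against 6.69, 31.6 and 55.7 Mb in WT. For Rbm24 the value fell at each step of list length, from 928 bp per Mb (HOM replicate 3) to 339 (WT replicate 3). The other 7 genes did not fall at every step. Genotype and list length cannot be told apart in these signs. Over all genes the HOM mean was above the WT mean in 13.1% with all 6 libraries and in 26.9% without HOM replicate 2.

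Celf2 gave the clearest contrast among the 5 longer lists. Its relative covered length came to 407, 439 and 425 in the WT libraries (bp per Mb), against 449 and 645 in HOM replicates 1 and 3, so both HOM values were above all WT values (difference +123, exact p = 0.1, where 4.36% of genes had HOM higher and 8.85% WT higher in this way). The same 5 lists were also cut to their 15184 strongest peaks, the full number of HOM replicate 3. Celf2 was then higher in HOM, 698 and 645 against 436, 553 and 441 bp per Mb, beside 6.07% of genes. The cut lists still differed in covered length. It was 5.34, 14.5 and 24.4 Mb for the WT libraries, while HOM replicate 1 kept 8.58 Mb and HOM replicate 3 its 4.54 Mb. After the cut Celf1 was 0 in both HOM libraries and 34.1, 92.6 and 82.1 in WT, beside 7.74% of genes with WT higher. In the full lists Celf1 had 86.3 in HOM replicate 1, within the WT values of 94.8, 83.0 and 83.2, and 0 in HOM replicate 3. Its 5 peaks in HOM replicate 1 were weak, the best in the top 32.1% by fold, and the cut removed them. Celf2 and Celf1 were singled out after their values were seen.

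**Figure D4:**
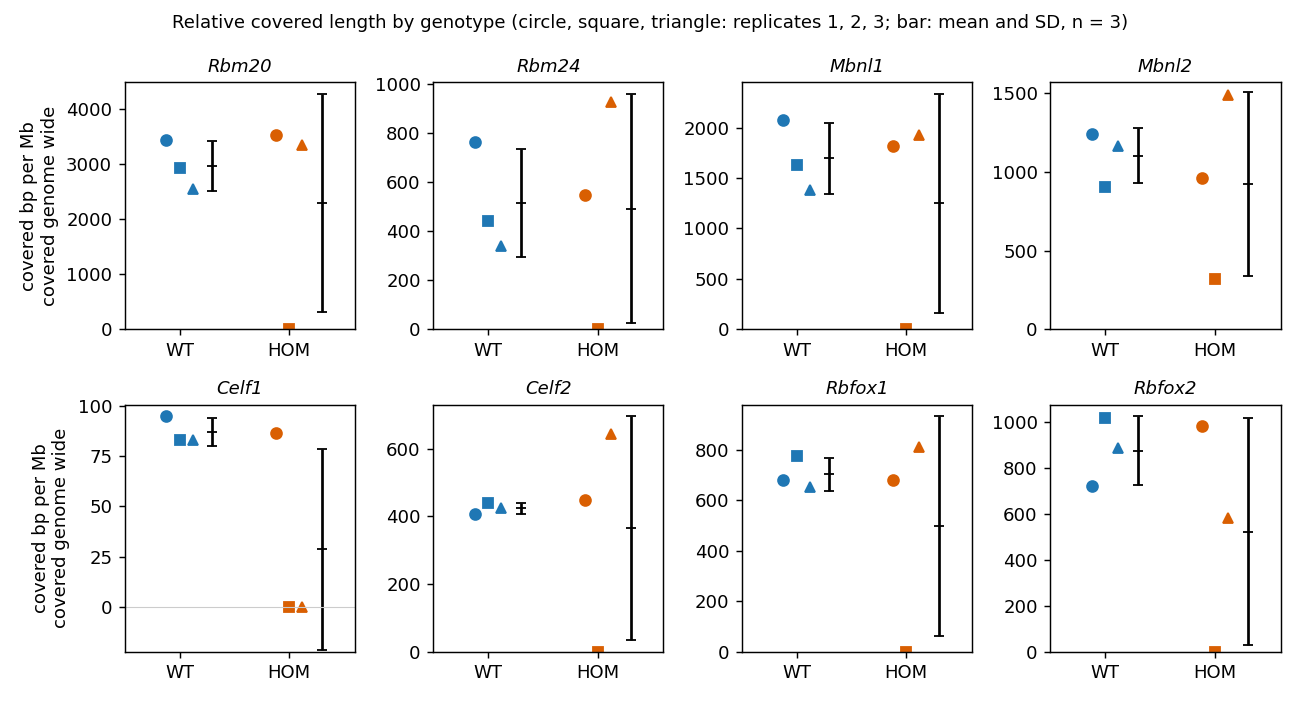
Relative covered length (bp covered in the window per Mb covered genome wide, vertical axis) of each gene by genotype, with 1 marker per replicate and a bar for the mean and SD (n = 3). The HOM markers at 0 belong to HOM replicate 2 in 7 of the 8 genes, and to HOM replicates 2 and 3 in Celf1.

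Other splicing regulators were read from lists of symbols. Of 45 genes listed as muscle and general splicing regulators, 13 had a peak in all 5 longer lists, 28.9% beside 16.5% of all genes. Their median of mean percentile of covered length was 77.2, beside 63.4 for all genes. Tied genes take the highest percentile, so a gene without any peak stands at 60.3 on this scale. Rbpms, an RNA-binding protein of muscle, led with 14305, 66114 and 116243 bp in WT and 39765, 57 and 10457 bp in HOM, and its HOM replicate 1 domain ranked 8, behind Rbm20. Qk, the quaking RNA-binding protein, Hnrnpl, Srsf10 and Hnrnpu followed. Of the 45, 7 had WT higher without overlap, beside 8.56% of all genes, and 0 had HOM higher. Of 16 regulators of neurons or epithelia, 2 (Srrm4 and Khdrbs3) had a peak in all 5 longer lists. That is 12.5%, near the 16.5% of all genes. Celf6, Ptbp2 and Esrp1 came next and had peaks in 3, 3 and 2 of the 6 libraries, and Celf3, Elavl2, Khdrbs2, Mbnl3 and Nova2 had none.

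Of 15 genes whose transcripts RBM20 is known to regulate, 15 had a peak in all 5 longer lists, beside 16.5% of all genes. Fhod3, Camk2d, Cacna1c and Lmo7 were among those with the highest mean percentiles of covered length, at 99.95, 99.83, 99.80 and 99.70. Titin (Ttn) stood at 96.3 and Ryr2 at 96.3. Many of these genes encode parts of the contractile or calcium-handling apparatus and are long, which favours a high covered length. By share of the window the median was 92.9, beside 63.5 for all genes. The genes most like Rbm20 in percentile of covered length over the 5 longer lists were Arhgap26, Vps13d, Ank, Ablim1 and Tns1, and the distance was 0.0199 to 0.0585 percentile points.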

How the data were processed

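CUT&RUN of H3K27ac was performed by the submitters on 6 libraries, 3 per genotype, and the deposited lists have the columns of MACS2 narrow peaks, called per library. BWA, MACS2 and mm10 are named in the submitters' processing notes, and versions are not given in the sources used here. For each peak the authors deposited a score, a fold enrichment (a ratio) and −log10 values of p and q, used only within a list. Fold values were whole multiples of 1 fragment within 0.02 in 100% of peaks, which gave the summit pileups. Read depth is not stated in the lists.

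Genes came from RefSeq GRCm38.p6, and positions are 1-based. Python 3.11.15, numpy 2.4.6, pandas 2.3.3 and scipy 1.17.1 were used. Overlapping peaks of a library were counted once in covered lengths, and peaks were joined over gaps of up to 10 kb for domains. Genotypes were compared with exact permutation tests, Benjamini-Hochberg adjusted over 13591 genes. The code was tested on simulated data: coverage matched direct counting in 100 of 100 trials, and 200 of 200 genes planted at 4-fold among 13520 were recovered as non-overlapping between 3 and 3 libraries. This recovery checks the code only. In the data, HOM replicate 2 had a peak in 534 of 21887 genes. A gene without a peak there cannot have all HOM values above all WT values. Whether a 4-fold gain in HOM would be seen in these lists was not tested. Members and lists were chosen with earlier results of these data known. Named genes were the 8 members, the 5 of each other list with the highest mean percentile, up to 5 of each without a peak, and the 5 genes most like Rbm20. Ttn, Ryr2, genes that overlap the Rbm20 window or domain, and genes in domains next to it in rank were named after their values were seen. A gene that this rule named is not reported here.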

Additional observations from a re-analysis of the deposited data

How the results depend on the processing

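The deviations of same-numbered libraries correlated at -0.0641, -0.0714 and -0.233 over 13591 genes, and those of differently numbered libraries at -0.0795 to 0.190. With 3 libraries per genotype and so few peaks in HOM replicate 2, these values cannot decide whether replicate numbers pair the libraries. The replicate block left the Rbm20 difference at -677 bp per Mb (exact sign-flip p = 1, smallest possible 0.25) and called none of the 8 genes. Of the alternative values, 20 changed sign and 13 counts moved by more than 1.5 times. The other 126 kept direction and side of the threshold or stayed within 1 SD or 1.5 times, but not always size: lists as short as the shortest gave -508 for Rbm24 and -2422 for Mbnl1, against -22.2 and -448. Cutting the 5 longer lists to equal numbers of peaks turned the difference positive for Rbm20 (80.3), Rbm24 (108), Mbnl1 (53.8), Mbnl2 (211), Celf2 (195) and Rbfox1 (106). The libraries with many Y-chromosome peaks (111 and 112, 1 library per genotype, no test) gave 86.2 for Rbm20, 42.3 for Celf2, 1.97 for Rbfox1 and 260.5 for Rbfox2, and those with 1 to 5 gave 74.3 for Rbm24. The stronger 50% of each list gave 89.6 for Rbm24, and lists as short as the shortest gave 254 for Celf2 and no value for Celf1. Leaving out 1 library gave -1292 to 465 for Rbm20, -240 to 224 for Rbm24 (102 without WT replicate 1), -788 to 177 for Mbnl1, -460 to 123 for Mbnl2, -87.0 to -43.8 for Celf1, -199 to 123 for Celf2, -363 to 42.2 for Rbfox1 and -585 to -92.5 for Rbfox2. The positive ends came from leaving out HOM replicate 2. The cause of the other changes was not tested. Genes without overlap and WT higher numbered 773 without flanks, 1753 with 50 kb flanks, 770 with the stronger 50%, 613 at equal numbers, and 1203 to 5005 with 1 library left out, beside 1164. Those with HOM higher numbered 16 with the stronger 50%, 481 at equal numbers, and 41 to 592 with 1 library left out, beside 36. Regions in at least 4 libraries in the Rbm20 window numbered 26, beside 14 in at least 5. The Rbm20 domain covered 54343 to 118912 bp on average with 1 WT library left out and 40429 bp at equal numbers of peaks, beside 84132 bp. The lists hold no read counts, so a window without a peak may lie below the calling threshold, and in HOM replicate 2, with 1462 peaks, that applies to 7 of the 8 genes.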

Other observations

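Srrm4, a neuronal regulator of microexons, had covered lengths of 1632, 7640 and 10073 bp in WT replicates 1, 2 and 3 and of 5526, 0 and 1008 bp in HOM replicates 1, 2 and 3. Khdrbs3, an RNA-binding protein of the STAR family, had 877, 12050 and 18879 bp in WT and 3999, 0 and 354 bp in HOM. Both followed the length of the lists. The other 14 genes of the neural or epithelial list lacked a peak in at least 1 of the 5 longer lists.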
